A study of Mus musculus with 84 samples.

Results

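The 10 chemokine genes described here are Ccl1, Ccl2, Ccl3, Ccl4, Ccl6, Ccl7, Ccl9, Cxcl2, Ccl17 and Ccl22. They were taken by symbol from the 55471 genes of the deposited count tables, and all 10 were found. They were read in MMC9s, mast cells of the small-intestinal mucosa that make IL-9 and accumulate in experimental food allergy. All mice were of the BALB/c strain, and their ages were not given in the sources used here. For bulk RNA-seq, wild-type mice sensitized to ovalbumin received bone marrow progenitors of 1 of 3 genotypes and then 7 oral ovalbumin challenges, given 3 times per week. The progenitors were WT, IL4RaY709F (a gain-of-function mutant of the IL-4 receptor alpha chain) or IL4Ra-/- (its loss of function). There was 1 library per genotype, and the RNA behind each came from a pool of 12 to 20 biological replicates. The recipients were wild type for the receptor in every group, and how donor cells were told from those of the host was not given in the sources used here. A second data set held 81 single WT MMC9s from ovalbumin-sensitized and challenged mice (an ovalbumin and alum model). The gate took IL-4GFP high cells that were c-Kit+ and ST2+, low for β7-integrin, and both Lin- and IL-17RB2-. No animal is named for any of them, so they form 1 sample.

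Chemokines are small secreted proteins that guide leukocytes along concentration gradients through G protein-coupled receptors. Mast cells are known to release CC chemokines after crosslinking of IgE receptors or cytokine stimulation, and these draw in monocytes, T cells, eosinophils and basophils. Ccl2 and Ccl7 act on CCR2, Ccl3 acts on CCR1 among others, and Ccl1 acts on CCR8. Ccl3 and Ccl4 are the macrophage inflammatory proteins MIP-1α and MIP-1β. Ccl6 and Ccl9 are macrophage-associated ligands of CCR1, and Cxcl2 recruits neutrophils through CXCR2. Ccl17 and Ccl22 are the ligands of CCR4 and are induced by IL-4 through STAT6 in dendritic cells and macrophages.

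The bulk libraries held 2299793 (WT), 2521791 (IL4RaY709F) and 2330628 (IL4Ra-/-) gene reads, and 80 of the 81 cells held between 163596 and 2210211. The cell left out had 1225. With 1 library per genotype there is no replicate check, and no p-value was computed. Every interval below is a 95% counting interval that covers counting error only. Il4ra, the gene altered in the mutants, had 806 reads in WT, 1831 in IL4RaY709F and 350 in IL4Ra-/-. Levels of a gene in CPM are its counts scaled to a common library total, with the bulk libraries also scaled by TMM. All 15 of 15 mast cell markers were present in every library, and each of the 80 cells held at least 10 of them. Il9 itself had 13, 73 and 1 reads in WT, IL4RaY709F and IL4Ra-/-, and reached 10 reads in 1 of 80 cells. Macrophage markers and some of the listed dendritic cell markers were also present, their sums highest in the IL4Ra-/- library. Their values are given beside the results that they move with.

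Of the 10 members, 7 lie on chromosome 11 (GRCm38) in clusters of CC chemokine genes. Ccl2 (ENSMUSG00000035385, chr11:82035571-82037453, plus strand), Ccl7 (ENSMUSG00000035373, chr11:82045712-82047525, plus) and Ccl1 (ENSMUSG00000020702, chr11:82176657-82305690, minus) form one neighbourhood. Further along are Ccl9 (ENSMUSG00000019122, chr11:83572919-83578636, minus), Ccl6 (ENSMUSG00000018927, chr11:83587882-83593087, minus), Ccl3 (ENSMUSG00000000982, chr11:83647844-83649355, minus) and Ccl4 (ENSMUSG00000018930, chr11:83662584-83664683, plus). Ccl22 (ENSMUSG00000031779, chr8:94745590-94751699, plus) and Ccl17 (ENSMUSG00000031780, chr8:94810453-94812036, plus) are on chromosome 8. Cxcl2 (ENSMUSG00000058427, chr5:90903871-90905938, plus) is on chromosome 5. No exon of a member shared a base with an exon of another annotated gene (0 bases for each of the 10).

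Promoter windows of RefSeq (GRCm38.p6, from 250 bases before to 50 bases after the annotated start, 300 in all) were matched by symbol for 7 of the 10 members. There was no entry for Ccl2, Ccl4 and Ccl7. The reference strain is not the BALB/c strain of these mice. The RefSeq start of Ccl1 lies inside the longer Ccl1 span of the count table, so that its window is that of a shorter transcript. The windows printed here are those of Ccl1 and Ccl3, both abundant in MMC9s, of Ccl6 and Cxcl2, which were higher in IL4Ra-/-, and of Ccl17, the known IL-4 target. The following letters were searched on both strands, namely the NF-kB consensus, an AP-1 site (TGANTCA), a STAT site (TTCNNNGAA), a STAT6 site (the same arms with a spacer longer by a base) and a TATA box (TATAAA). Capitals mark the matches, and each sequence is written 5′ to 3′ on the strand of its gene.
Ccl1, chr11:82179763-82180062, minus: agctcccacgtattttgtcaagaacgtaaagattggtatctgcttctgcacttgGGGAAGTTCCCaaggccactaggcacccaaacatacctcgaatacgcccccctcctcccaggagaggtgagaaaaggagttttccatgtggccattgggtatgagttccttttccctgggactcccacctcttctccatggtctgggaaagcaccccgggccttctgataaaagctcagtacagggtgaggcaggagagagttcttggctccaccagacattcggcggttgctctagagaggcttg
Ccl3, chr11:83649329-83649628, minus: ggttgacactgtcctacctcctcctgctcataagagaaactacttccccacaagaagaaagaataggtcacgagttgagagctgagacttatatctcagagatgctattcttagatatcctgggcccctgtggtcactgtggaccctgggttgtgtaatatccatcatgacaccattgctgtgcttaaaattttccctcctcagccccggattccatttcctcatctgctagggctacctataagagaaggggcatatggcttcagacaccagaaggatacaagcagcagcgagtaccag
Ccl6, chr11:83593038-83593337, minus: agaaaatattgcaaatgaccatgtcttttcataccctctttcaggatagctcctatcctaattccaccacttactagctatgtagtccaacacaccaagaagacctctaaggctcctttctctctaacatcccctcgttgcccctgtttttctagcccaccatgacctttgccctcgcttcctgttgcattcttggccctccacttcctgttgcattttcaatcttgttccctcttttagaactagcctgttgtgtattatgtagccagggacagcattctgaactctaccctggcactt
Cxcl2, chr5:90903649-90903948, plus: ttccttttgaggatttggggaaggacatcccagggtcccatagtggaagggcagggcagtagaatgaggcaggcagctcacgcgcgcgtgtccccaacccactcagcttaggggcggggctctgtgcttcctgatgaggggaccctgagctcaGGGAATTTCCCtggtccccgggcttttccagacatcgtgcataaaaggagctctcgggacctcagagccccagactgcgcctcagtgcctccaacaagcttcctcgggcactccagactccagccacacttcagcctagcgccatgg
Ccl17, chr8:94810203-94810502, plus: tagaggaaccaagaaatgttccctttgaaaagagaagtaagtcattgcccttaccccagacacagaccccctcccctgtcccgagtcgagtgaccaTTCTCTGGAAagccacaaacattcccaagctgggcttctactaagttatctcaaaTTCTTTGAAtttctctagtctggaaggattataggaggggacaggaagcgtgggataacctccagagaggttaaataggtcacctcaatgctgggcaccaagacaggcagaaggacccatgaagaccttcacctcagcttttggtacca
An NF-kB match began at -196 from the start in Ccl1 and at -97 in Cxcl2, each overlapping a match on the other strand shifted by a base. Such a match was present in 8.46% of all 32851 promoter windows of the same length. Ccl17 held a STAT match at -99, found in 8.3% of all windows, and a STAT6 match at -154, found in 6.95%. The windows of Ccl3, Ccl6 and Ccl22 held none of these letters. In Ccl9, an NF-kB match at -35, an AP-1 match at -53 (7.81% of all windows) and 3 TATA box matches (13.6% of all windows) were found, the TATA matches at -92, -94 and -224. A match describes letters and is no evidence of a bound site.

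Chemokine expression of MMC9s was carried by 4 CC chemokines. Levels between genes are given as RPKM, which are CPM divided by the exon length of the gene in kilobases. Ccl4 was highest, at 1937 RPKM in WT, 2045 in IL4RaY709F and 2024 in IL4Ra-/-. Its partner Ccl3 stood at 851.7, 939.1 and 1119 RPKM in the same order. Ccl2, the monocyte attractant, had 684, 705.4 and 825.5 RPKM. Ccl1, the CCR8 ligand, had 102.1, 91.11 and 136.1 RPKM. The order Ccl4, Ccl3, Ccl2 and Ccl1 was therefore the same in the 3 libraries. It partly rests on the exon length used: by the principal transcript alone, Ccl2 (957.5 RPKM in WT) lay above Ccl3 (851.7 RPKM), and Ccl1 stood at 470.8 RPKM, with Ccl4 still highest.

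Ccl7, a further CCR2 ligand, followed at 65.55 RPKM in WT, 197 in IL4RaY709F and 79.04 in IL4Ra-/-, so that it lay above Ccl1 in the IL4RaY709F library by the exon length of the table. The neutrophil attractant Cxcl2 was lower, at 7.194, 4.158 and 16.35 RPKM. Ccl6 had 2.925, 1.437 and 11.83 RPKM and Ccl9 had 0.1437, 0.5648 and 2.97 RPKM. The CCR4 ligands were at the edge of detection in bulk: Ccl17 had 2, 2 and 0 reads and Ccl22 had 2, 0 and 1 reads in WT, IL4RaY709F and IL4Ra-/-. A count of 3 reads corresponded to between 1.18 and 1.31 CPM, so no ratio was formed for these genes.

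**Figure D1:**
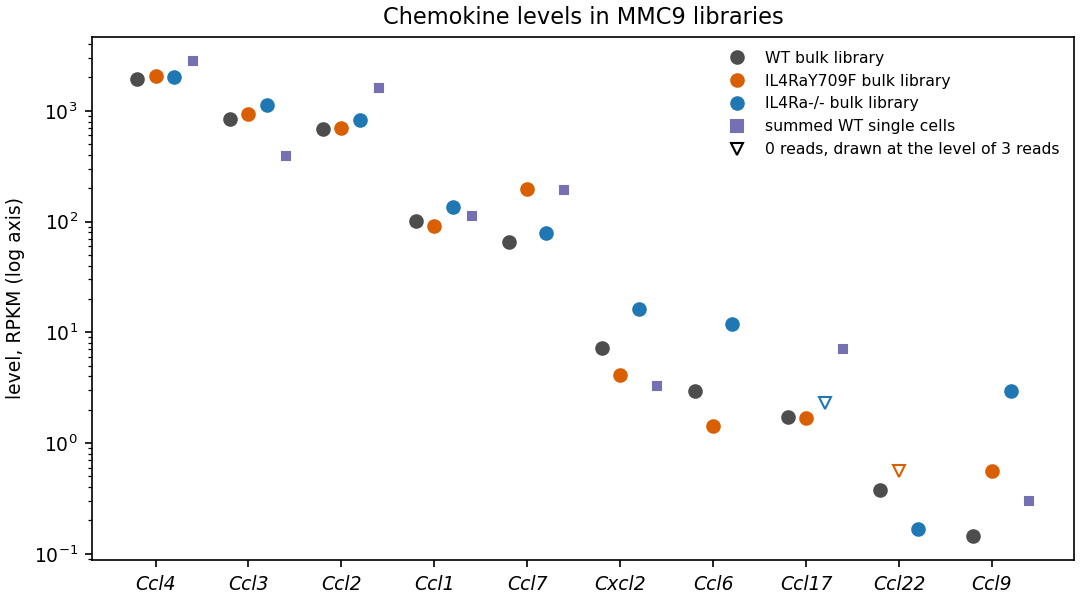
Level of each of the 10 chemokine genes in RPKM (log axis), with 1 circle per bulk library, a square for the sum of the 80 WT cells and a triangle where a library had 0 reads, drawn at the level of 3 reads; genes at 0 reads in the cells have no square. Ccl4, Ccl3, Ccl2 and Ccl1 are high in all 3 libraries, Ccl7 is highest in IL4RaY709F (197 RPKM), and Ccl6, Ccl9 and Cxcl2 are highest in IL4Ra-/-.

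Summed over the 80 WT cells, Ccl4 had 2842 RPKM, Ccl2 1621, Ccl3 394.5, Ccl7 194.6 and Ccl1 113.1. Ccl4 was highest there too, while Ccl2 lay above Ccl3. Ccl7 lay above Ccl1 by the exon length of the table but below it by the principal transcript (521.2 RPKM for Ccl1), and a single cell held 47.8% of the Ccl7 reads. Bulk and single cells came from different models, a transfer and an alum model, and are set side by side only.

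Reads of the 10 genes together came to 3026 CPM for WT, 3259 for IL4RaY709F and 3582 for IL4Ra-/-. In WT, Ccl4 gave 42.2% of these reads, Ccl2 25.7%, Ccl3 21.6%, Ccl1 8.0% and Ccl7 1.74%.

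The comparison of IL4RaY709F with WT asked which of these genes differ when IL-4 receptor signalling is enhanced. Ccl7 was the member that passed. It had 120 reads (52.51 CPM) in WT, 367 reads (157.8 CPM) in IL4RaY709F and 161 reads (63.31 CPM) in IL4Ra-/-. Its level in IL4RaY709F was above both other libraries, which lay close to each other. The ratio of IL4RaY709F to WT was 3.00-fold (interval 2.44 to 3.72), a log2 ratio of 1.59, and only 0.469% of the genes tested in this comparison (28 genes) had a higher one. The size rule asked for at least 50 reads in the larger library, a ratio of 2-fold or more and an interval without 1 in it. Of the 5 members with at least 50 reads, 1 passed as higher (Ccl7) and 0 as lower. Over all 5964 genes tested, 1.68% passed as higher and 0.771% as lower. The median log2 ratio was 0.08 over the 5 members and 0.02 over all genes tested. The sum of the basophil markers was also highest in this library. The 4 listed genes in the table came to 214.4 CPM in WT, 413.2 in IL4RaY709F and 191.9 in IL4Ra-/-, with none at 0. The ratio of IL4RaY709F to WT was 1.93 (1.73 to 2.15). Of these genes, Prss34 passed as 2.58-fold higher and Cd200r3 lay 1.81-fold higher. In IL4Ra-/- against WT, Prss34 passed as 3.51-fold lower (2.34 to 5.4), whereas Ccl7 lay 1.21-fold higher (0.946 to 1.54). Mcpt8 was highest in IL4Ra-/- (16.12 CPM, beside 12.9 in IL4RaY709F), and Itga2 was near WT (8.599 beside 8.751 CPM). Prss34, Cd200r3 and Mcpt8 were also detected in 12, 30 and 21 of the 80 WT cells. The 15 mast cell markers summed to 73680, 104700 and 69070 CPM, a ratio of 1.42, and Cma1, a chymase, was 3.19-fold higher. Their part in the Ccl7 result was not tested.

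The abundant chemokines differed little between IL4RaY709F and WT. Ccl2 had 1779 reads (778.4 CPM) in WT and 1867 reads (802.7 CPM) in IL4RaY709F, a log2 ratio of 0.04 (interval -0.05 to 0.14), or -0.06 when libraries were scaled to total reads. Ccl3 had 1491 reads (652.4 CPM) and 1673 reads (719.3 CPM), a log2 ratio of 0.14 (0.04 to 0.24). Ccl4 had 2922 reads (1279 CPM) and 3139 reads (1350 CPM), a log2 ratio of 0.08, or -0.03 by total reads. These values put the neighbouring genes Ccl2 and Ccl7, 8.26 kb apart, at unlike ratios in the same library. Ccl1 had 553 reads (242 CPM) in WT and 502 reads (215.8 CPM) in IL4RaY709F, a log2 ratio of -0.16 (-0.34 to 0.01). Ccl6, with 12 and 6 reads, Ccl9, with 1 and 4, and Cxcl2, with 34 and 20, were under the read minimum. In bulk RNA, fewer cells that make a transcript and less transcript per cell cannot be told apart.

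The comparison of IL4Ra-/- with WT asked which members differ without the receptor. Ccl6 and Cxcl2, both scarce in MMC9s, were higher. Ccl6 had 12 reads (5.251 CPM) in WT, 6 reads (2.58 CPM) in IL4RaY709F and 54 reads (21.24 CPM) in IL4Ra-/-. The IL4Ra-/- level was 4.04-fold the WT level (2.14 to 8.31), a log2 ratio of 2.02, and 0.576% of the genes tested (36 genes) had a higher ratio. Cxcl2 had 34 reads (14.88 CPM), 20 reads (8.599 CPM) and 86 reads (33.82 CPM), and its ratio was 2.27-fold (1.51 to 3.49), with 1.68% of genes above it. Ccl9, 9.25 kb from Ccl6 on the chromosome, had 1 read in WT, 4 in IL4RaY709F and 23 in IL4Ra-/-, a ratio to WT of 20.7 with a wide interval (3.36 to 852), and stayed under the read minimum. Both Ccl6 and Cxcl2 passed the read minimum only through the IL4Ra-/- library. Of the 7 members with at least 50 reads, 2 passed as higher and 0 as lower, against 2.43% and 1.3% of all 6246 genes tested.

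Of the abundant chemokines, none passed the size rule in IL4Ra-/-. Ccl1 had 820 reads (322.5 CPM) there, a log2 ratio to WT of 0.41 (0.26 to 0.57). Ccl3 had 2179 reads (856.9 CPM) and a log2 ratio of 0.39 (0.30 to 0.49). Ccl2 had 2389 reads (939.5 CPM) and a log2 ratio of 0.27 (0.18 to 0.36). Ccl4 had 3397 reads (1336 CPM) and a log2 ratio of 0.06 (-0.01 to 0.14). Ccl1, Ccl3 and Ccl2 thus lay above WT by less than 1.5-fold, with intervals above 0, while that of Ccl4 included 0 (by total reads its log2 ratio was 0.20). The log2 ratio of Ccl7 was 0.27 (-0.08 to 0.62). The median over the 7 members was 0.39, beside -0.08 over all genes tested. It includes Ccl6 and Cxcl2, which were tested only through their reads in the IL4Ra-/- library. Without them, Ccl1, Ccl2, Ccl3, Ccl4 and Ccl7 lay between 0.06 and 0.41.

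**Figure D2:**
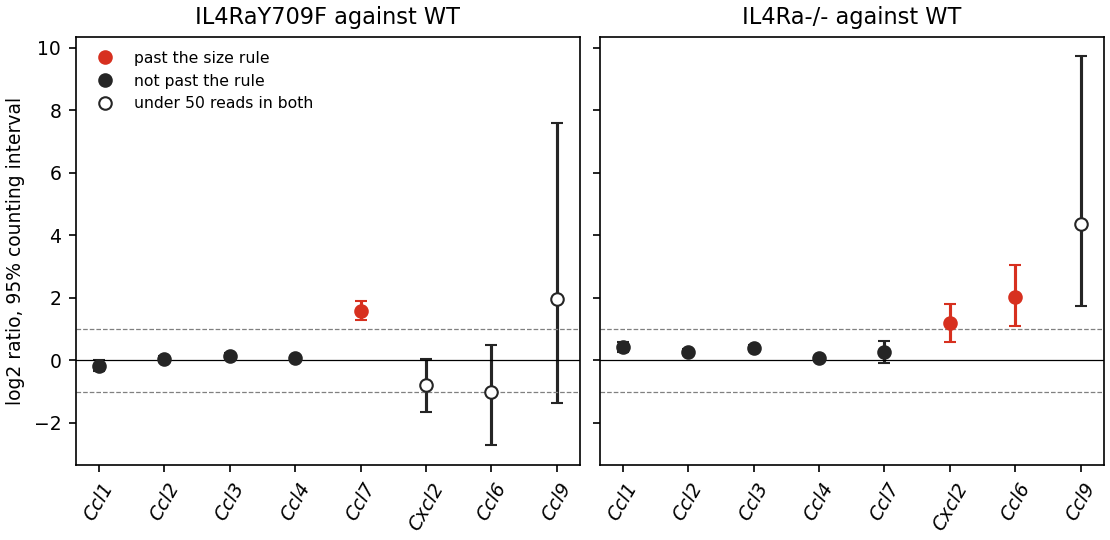
Log2 ratio of each member between libraries, with its 95% counting interval (vertical bars), in each mutant against WT. Red points passed the size rule, open points had under 50 reads in both libraries, dashed lines mark 2-fold and Ccl17 and Ccl22 are left out. Ccl7 lies at 1.59 in IL4RaY709F against WT, Ccl6 at 2.02 and Cxcl2 at 1.18 in IL4Ra-/- against WT, while Ccl1, Ccl2, Ccl3 and Ccl4 lie between -0.16 and 0.41.

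Set directly against each other, the mutants differed by more than 2-fold in the same 3 genes. Both comparisons above use the same WT library, and the present one uses both mutant libraries again. Ccl7 was 2.49-fold higher in IL4RaY709F than in IL4Ra-/- (2.07 to 3.02). Ccl6 was 8.23-fold lower (3.55 to 23.4) and Cxcl2 was 3.93-fold lower (2.40 to 6.76). Ccl9, under the read minimum, had a log2 ratio of -2.39 (-4.39 to -0.85). Of 7 members tested, 1 passed as higher and 2 as lower, against 4.62% and 3.5% of all 6319 genes tested. Ccl1 had a log2 ratio of -0.58 (-0.74 to -0.42), Ccl3 of -0.25 (-0.35 to -0.16) and Ccl2 of -0.23 (-0.32 to -0.14). Ccl4 stood at 0.01 (-0.06 to 0.09), or -0.23 by total reads. The median was -0.25 over the 7 members and 0.09 over all genes tested. Here too, Ccl6 and Cxcl2 were among the 7 only through their reads in the IL4Ra-/- library.

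Macrophage markers had the same order across the libraries as Ccl6 and Cxcl2, and were high with Ccl9 in IL4Ra-/-. In IL4RaY709F against WT, both genes were under the read minimum and their intervals included 1. Ccl6 was 2.04-fold lower (0.707 to 6.61) and Cxcl2 1.73-fold lower (0.968 to 3.17). The macrophage list held 15 genes, with none at 0 in any library. They summed to 798.5 CPM in WT, 751.1 in IL4RaY709F and 1297 in IL4Ra-/-. Of the list, Cx3cr1 was also found in 68 of 80 MMC9s and C1qa in 7. The 13 listed genes found in under 5% of the cells were therefore summed as well. These came to 177.2 CPM in WT, 96.31 in IL4RaY709F and 582.8 in IL4Ra-/-, a ratio to WT of 0.544 (0.460 to 0.641) in IL4RaY709F and 3.29 (2.94 to 3.68) in IL4Ra-/-. In IL4Ra-/-, 9 of the 10 listed genes tested passed as higher than WT. Dendritic cell markers found in under 5% of the cells summed to 56.88, 50.74 and 150.2 CPM, with 3, 3 and 2 of 8 at 0. Most of their 130, 118 and 382 reads were of H2-Eb1 (97, 76 and 284) and Itgax (29, 34 and 83). Flt3, Zbtb46, Xcr1, Ccr7, Clec9a and Cd209a each had 5 reads or fewer in every library. Epithelial markers chosen the same way summed to 13.13, 16.34 and 56.63 CPM. The 8 B cell or plasma cell markers, immunoglobulin genes included, summed to 6539, 3008 and 13290 CPM, and these immunoglobulin reads were also present in the single cells. Neutrophil markers were nearly absent (13, 6 and 12 reads in all).

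Per 100 reads of the 13 macrophage genes, Ccl6 had 2.96 reads in WT, 2.68 in IL4RaY709F and 3.64 in IL4Ra-/-. Cxcl2 had 8.39, 8.93 and 5.80, and Ccl9, from 1, 4 and 23 reads, had 0.247, 1.79 and 1.55. Expressed this way, the 3 values of Ccl6 lay between 2.68 and 3.64, whereas Ccl7 had 29.6, 164 and 10.9 and Ccl4 had 721.5, 1401 and 229.2. This measure depends on its denominators, which were 405, 224 and 1482 reads in WT, IL4RaY709F and IL4Ra-/-. By it, Ccl1, Ccl2, Ccl3 and Ccl4, which differed little in CPM, were also highest in IL4RaY709F. The part of other cells in the Ccl6, Cxcl2 and Ccl9 results was not tested.

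**Figure D3:**
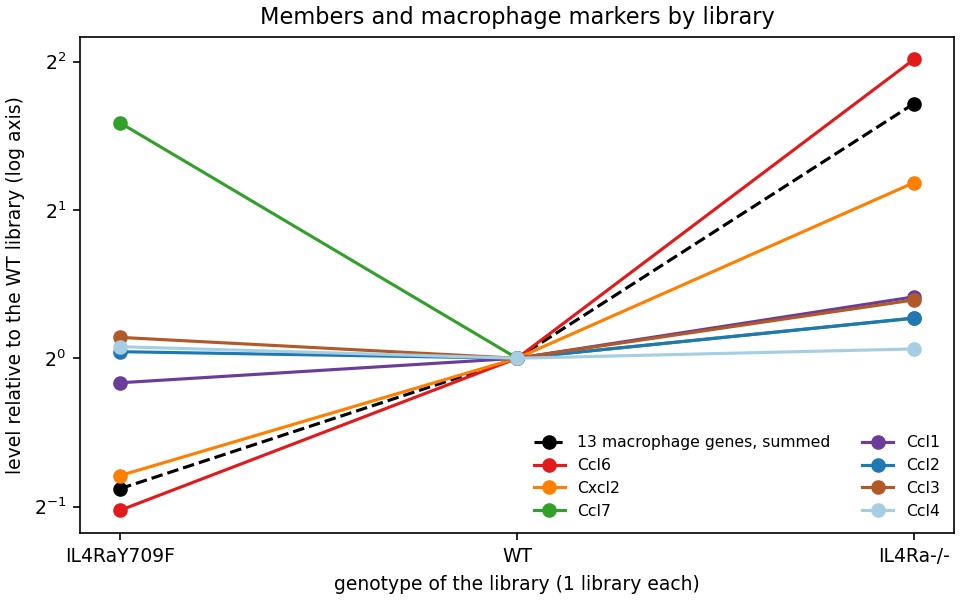
Level relative to WT (log axis) of 7 members and of the 13 summed macrophage genes (dashed), with 1 point per library and lines that only join the points of a gene. Ccl6 and Cxcl2 lie below WT in IL4RaY709F and above it in IL4Ra-/-, as the macrophage sum does, while Ccl7 lies highest in IL4RaY709F. The IL4RaY709F points of Ccl6 and Cxcl2 rest on 6 and 20 reads, with counting intervals of the ratio to WT that include 1.

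The genes next to the members on chromosome 11 were low. Between Ccl7 and Ccl1 lie Ccl11, Ccl12 and Ccl8, which attract eosinophils and monocytes. Ccl11 had 0, 0 and 4 reads in WT, IL4RaY709F and IL4Ra-/-, Ccl12 had 6, 2 and 9, and Ccl8 had 3, 2 and 7. Ccl5, beyond Ccl9, had 1 read in each library. Ccl6 and Ccl3 are 54.8 kb apart, and in WT they differed from 2.925 to 851.7 RPKM. Ccl3 and Ccl4, 13.2 kb apart and on opposite strands, were both high. On chromosome 8, Cx3cl1 between Ccl22 and Ccl17 had 1, 1 and 4 reads.

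**Figure D4:**
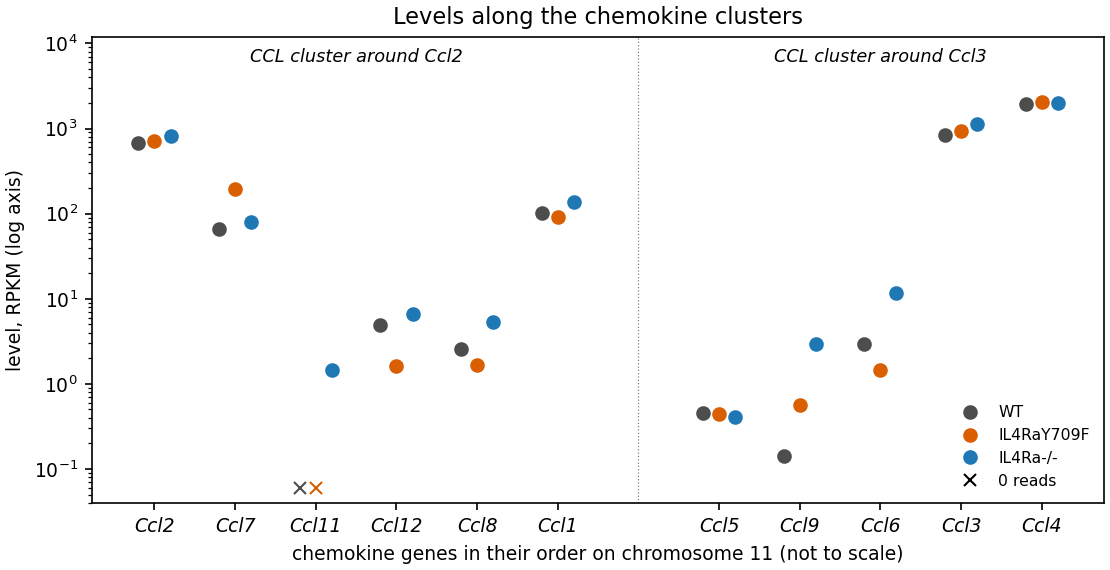
Levels (RPKM, log axis) of the chemokine genes of chromosome 11 in their chromosomal order, 1 point per library and a cross for 0 reads. Ccl2, Ccl7 and Ccl1 in the first cluster and Ccl3 and Ccl4 in the next stand above the genes beside them in all 3 libraries.

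Single WT cells showed how widely each chemokine was made. Detection in a cell meant 10 or more reads of the gene, and shares are of the 80 cells with exact 95% binomial intervals. Ccl2 and Ccl4 were detected in 68 cells each (85%, 75.3 to 92.0). Ccl3 was detected in 45 cells (56.2%, 44.7 to 67.3) and Ccl1 in 33 cells (41.2%, 30.4 to 52.8). Ccl7 was detected in 7 cells (8.75%, 3.59 to 17.2) and Ccl17 in 3 (3.75%, 0.78 to 10.6). Ccl9 and Cxcl2 were each detected in 1 cell (1.25%, 0.0316 to 6.77). Ccl6 and Ccl22 had 0 reads in all 80 cells, which allows a share of up to 4.51%. Most cells thus held Ccl2 and Ccl4, with Ccl3 and Ccl1 in fewer and the remaining members in few or none.

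Levels varied widely from cell to cell. Ccl2 ran from 0.679 to 15620 CPM with a median of 649.8, and Ccl4 from 0.727 to 17790 CPM with a median of 749.6. Every one of the 80 cells had at least 1 read of both genes, and in 12 cells each gene had only 1 to 9 reads. The cell left out for its depth of 1225 reads had 3 reads of Ccl4. Whether such low counts came from the cell itself was not tested, and the sample holds no other cell type to read them against. Ccl3 ran from 0 to 2194 CPM (median 51.73) and Ccl1 from 0 to 7984 CPM (median 2.83). The spread differed by gene: 10 cells held 51.2% of all Ccl4 reads, 53.8% of Ccl2 reads, 58.9% of Ccl3 reads and 89.1% of Ccl1 reads. A single cell held 32.1% of all Ccl1 reads, and without it the mean of Ccl1 over cells went from 319 to 222 CPM.

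**Figure D5:**
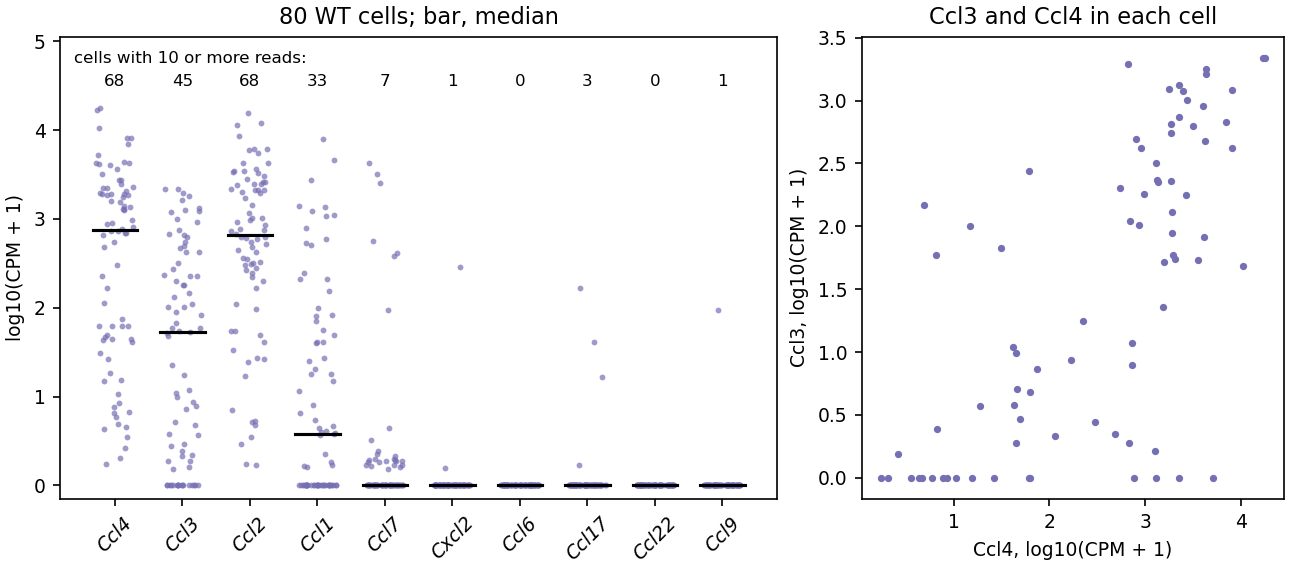
Left, level of each member in the 80 WT cells (1 point per cell, bar at the median, log10 of CPM + 1), with the number of cells at 10 or more reads above. Right, Ccl3 against Ccl4 in each cell; cells high in Ccl3 are mostly high in Ccl4 (Spearman rho 0.671).

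The 4 abundant chemokines were combined in the same cells. All of Ccl1, Ccl2, Ccl3 and Ccl4 were detected in 22 cells, Ccl2, Ccl3 and Ccl4 without Ccl1 in 19, and Ccl2 and Ccl4 alone in 15. None of the 4 was detected in 5 cells, and 74 cells held Ccl2 or Ccl4. The median cell held 3 of the 10 members, and 69 cells held at least 2. Per length, Ccl4 was the highest member in 38 cells and Ccl2 in 31, beside 4 for Ccl3 and 2 for Ccl1.

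Cells with Ccl3 mostly held Ccl4 as well. Of the 45 cells with Ccl3, 43 held Ccl4 (95.6%), beside 25 of the 35 cells without Ccl3 (71.4%), and the median Ccl4 level was 1889 CPM in the former and 44 CPM in the latter. Across the 80 cells, Spearman's rho was 0.671 for Ccl3 and Ccl4, 0.424 for Ccl2 and Ccl4, 0.405 for Ccl1 and Ccl3 and 0.339 for Ccl1 and Ccl4. It was lower for Ccl2 with Ccl3 (0.170) and for Ccl1 with Ccl2 (0.161). These cells share a sample and differ in depth, and the rho of each of the 4 genes with the gene reads of a cell lay between -0.02 and 0.11.

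Genes whose levels across the 80 cells were most like those of a member were sought among 3626 genes detected in at least 20 cells, and of the 3 highest for each member those with a rho of at least 0.5 are named. For Ccl3 they were Ccl4 (0.671), Nfkbiz (0.617), which encodes the nuclear NF-kB regulator IκBζ, and Gimap5 (0.515), a GTPase of immune cells. For Ccl4 they were Ccl3 (0.671), Gimap5 (0.621) and Nfkbiz (0.571). Below these 3, and chosen after its value was seen, Hdc, which encodes the histamine-forming enzyme, had a rho of 0.533 with Ccl4, 0.473 with Ccl2 and 0.252 with Ccl3. For Ccl2 it was Tmem64 (0.601), a membrane protein gene. For Ccl1 no gene reached 0.5.

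Ccl7 was concentrated in a few cells. The 7 cells held 6948, 3237, 2352, 734, 636, 477 and 113 reads, and the 3 highest of them had 86.3% of all Ccl7 reads. A further 20 cells had 1 to 9 reads and 53 had none. All 7 cells held Ccl2 and Ccl4, 6 held Ccl3 and 5 held Ccl1, beside shares of 68, 68, 45 and 33 of all 80 cells. Their Ccl2 levels ranked from 6 to 46 among the 80. Each of them held the mast cell protease transcript Cpa3 (4631 to 30183 reads). The cell with 2352 Ccl7 reads had the fewest reads of Cpa3 (4631) and of Kit (235) among them. Of the macrophage markers other than Cx3cr1, none was detected in 6 of these cells, and in the other cell C1qa had 49 reads. Cd74, the MHC class II invariant chain, was detected in 4 of the 7 cells and in 14 of all 80. H2-Aa, a class II gene, was detected in 2 of the 7 and in 12 of all 80.

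The remaining members were seen in single cells. The only cell with Cxcl2 had 631 reads of it and 52893 reads of Cpa3. The cell with Ccl9 had 85 reads of it. Ccl17 had 256, 65 and 16 reads in its 3 cells, and each of these also held Ccl2, Ccl3 and Ccl4. No macrophage marker other than Cx3cr1 was detected in any of these 5 cells. Of the macrophage markers, Lyz2, C1qb and C1qc were detected in 0 of the 80 cells, as was Ccl6. Others of the list were detected, C1qa in 7 cells, Cd68 in 3, and Cd14 and Ly6c2 in 2 each.

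Of 28 other chemokine genes in the table, 0 reached 50 reads in any bulk library. The highest were Ccl24, an eosinophil attractant, with 12, 36 and 24 reads in WT, IL4RaY709F and IL4Ra-/-, Cxcl16 with 16, 9 and 23, and Cxcl10 with 7, 5 and 8. Ccl24 was detected in 3 of the 80 cells, and Cxcl16 and Cxcl10 in 0.

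Of 23 chemokine receptor genes, few were expressed. Tested against WT were Cx3cr1 and Ccrl2 in IL4RaY709F, and Ccr1 as well in IL4Ra-/-, and 0 passed the size rule in either. Ccr1, the receptor of Ccl3, Ccl6 and Ccl9, had 46, 41 and 100 reads in WT, IL4RaY709F and IL4Ra-/-. It was lower in IL4RaY709F than in IL4Ra-/-, with a log2 ratio of -1.16 (-1.72 to -0.62). Cx3cr1, the fractalkine receptor, had 1389, 1504 and 1659 reads and was detected in 68 cells. Ccrl2, an atypical receptor that binds chemerin, had 295, 238 and 438 reads and was detected in 43 cells. Under the read minimum, Ccr8, the receptor of Ccl1, had 25, 35 and 10 reads and was detected in 15 cells. Cxcr4 had 24, 30 and 45 reads and was detected in 13 cells. Ccr1 itself was detected in 7 cells, and it moved across the libraries in the order of the macrophage marker sum. In IL4RaY709F against WT, however, Ccr1 was under the read minimum, with a log2 ratio of -0.19 (-0.83 to 0.45) that included 0. The part of other cells in its difference was not tested.

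All 22 genes listed as regulators of chemokine genes were tested. They are NF-kB, AP-1, NFAT and EGR factors, inhibitors of NF-kB signalling (Nfkbia and Tnfaip3 among them) and the mRNA-decay factors Zfp36, Zfp36l1 and Zc3h12a. Bcl3, a nuclear partner of NF-kB p50 and p52, was the member of this list that passed. It had 132 reads in WT, 276 in IL4RaY709F and 72 in IL4Ra-/-, so that WT lay between the mutants. Its log2 ratio was 1.04 (0.73 to 1.35) in IL4RaY709F and -1.03 (-1.46 to -0.60) in IL4Ra-/- against WT, and 2.07 (1.69 to 2.46) between the mutants. In each comparison 1 of the 22 genes thus passed. Over all genes tested, 1.68% passed as higher in IL4RaY709F and 1.3% as lower in IL4Ra-/- against WT. Between the mutants, 4.62% passed as higher, so 1 gene of this list is no result about the list. Over the list, the median log2 ratio was -0.01 in IL4RaY709F, with 11 genes above and 11 below 0. In IL4Ra-/- it was -0.43, with 1 above and 21 below 0, beside a median of -0.08 over all genes tested. By total reads the list had a median of -0.29, with 6 above and 16 below 0, and that over all genes was 0.05. Nfkbiz, the gene most like Ccl3 after Ccl4 across cells, had 7166, 8239 and 7760 reads in WT, IL4RaY709F and IL4Ra-/-, a log2 ratio to WT of 0.18 and -0.04. The levels of Ccl1, Ccl2 and Ccl3 in IL4Ra-/- thus lay above WT while most genes of this list lay below it. Inhibitors and decay factors were among those below, such as Zc3h12a (log2 ratio -0.86) and Nfkbia (-0.59), as well as activators such as Rela (-0.77) and Junb (-0.68).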

How the data were processed

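Per the submitters' processing notes, the tools named are HISAT, an aligner, and featureCounts of Subread 2.0.0, a read counter. What the authors deposited are raw read counts for each gene, as whole numbers, and its exon length. Both GRCm38 and mm9 are listed as builds, with no role, and the coordinates of all 10 members (54900 of 55471 genes) equalled those of GENCODE M21, which is GRCm38. The strand setting, the treatment of reads mapping to several genes and molecular identifiers, if any, were not given in the sources used here. Without them, reads split among similar chemokine genes (Ccl2, Ccl7, Ccl8, Ccl11 and Ccl12, or Ccl6 and Ccl9) are uncertain, and reads are not independent molecules.

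Counts were scaled by TMM (edgeR 4.0.16) over the 3 bulk libraries to CPM, over all genes. Ratios carry exact conditional binomial (Clopper-Pearson) 95% intervals, computed with scipy 1.17.1, and no p-value was formed. RPKM used the deposited exon length. A ratio needed more than 3 reads in at least 1 library. Cells were kept at 10000 gene reads, and no doublets were called or clusters formed. The ratio script was tested on simulated counts. Alternatives were scaling by total reads and by DESeq2 1.42.0 size factors, read minimums of 20 and none, a 1.5-fold limit, detection at 1 read or 10 CPM, cells thinned to 150000 reads, and other lengths (TPM, and the principal transcript, chosen after seeing the data).

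The members and the gene lists were chosen with earlier results of these data known. Named are the members, listed chemokines, receptors and regulators that passed the size rule (otherwise the 3 with most reads), cell type markers that passed it or had most reads, and, of the 3 genes most like each member across cells, those with a rho of at least 0.5. Cx3cr1, Ccrl2, Ccr8, Cxcr4, Hdc, Il9, Il4ra, Cd74 and H2-Aa were chosen after their values were seen. So were the neighbours in the clusters and the other single marker genes. RPKM values mentioned in the design text were not analysed here.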

Additional observations from a re-analysis of the deposited data

How the results depend on the processing

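Members called were the same under both other scalings and at 1.5-fold (Ccl7; Ccl6 and Cxcl2; all 3 between the mutants). With a minimum of 20 reads or none, Ccl9 also passed, for 3 members in IL4Ra-/- against WT and 4 between the mutants. Scaling to total reads moved all log2 ratios by -0.11 in IL4RaY709F against WT, 0.13 in IL4Ra-/- against WT and -0.24 between the mutants. The median over members became -0.0296 (from 0.08) in IL4RaY709F against WT and -0.50 (from -0.25) between the mutants. Of the 7 members tested between the mutants, 2 lay above 0 in the TMM scaling and 1 by either other, the difference being Ccl4. By principal transcript length, the Ccl4 to Ccl2 ratio in WT was 2.02 in place of 2.83. At 1 read, 5 members in place of 4 were in at least 20 cells, with shares of 58.8% (Ccl1), 100% (Ccl2 and Ccl4), 78.8% (Ccl3) and 33.8% (Ccl7). No paired analysis was possible because each genotype has 1 library, so leaving out a replicate was also not possible. Depth limits Ccl9, Ccl17 and Ccl22 in bulk, where 3 reads or fewer were found in at least 1 library.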
